A study of Homo sapiens with 9 samples.

Results

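Large linker proteins tie the actin filaments, microtubules and intermediate filaments of a cell to each other and to its membranes. The plakins dystonin (DST), MACF1 and plectin (PLEC) are very long proteins that bridge filament systems, the IQGAP proteins are scaffolds that bind actin, calmodulin and small GTPases, and the spectrins SPTAN1 and SPTBN1 form the mesh under the plasma membrane. These proteins take part in cell shape, adhesion and migration, and the spectrin mesh is best known from red blood cells. The transcripts of 8 such genes were followed in SKNO-1, a line grown from human acute myeloid leukaemia with an endogenous AML1-ETO (RUNX1-RUNX1T1) fusion gene, after the chromatin regulator ASXL2 had been lowered by shRNA. The genes were DST, MACF1, PLEC, IQGAP1, IQGAP2, IQGAP3, SPTAN1 and SPTBN1, found by their symbols among 25680 symbols in the count files, where they filled 25 rows. DST and IQGAP2 were chosen by their adjusted p and their lower level with each shRNA in these same samples. Their differences from control are therefore given as a description without a test. The other 6 genes were added as relatives, with earlier results of these data known. Their adjusted p values thus do not come from a choice blind to the data.

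RefSeq (GRCh38.p14) gave 14 promoter windows for 7 of the 8 genes, each from 250 bases before to 50 bases after a start. The first windows of DST and IQGAP2 are shown because these genes head the list, with CpG dinucleotides in capitals. They lie at chr6:56954781-56955080 on the minus strand and chr5:76403035-76403334 on the plus strand.
DST, first window: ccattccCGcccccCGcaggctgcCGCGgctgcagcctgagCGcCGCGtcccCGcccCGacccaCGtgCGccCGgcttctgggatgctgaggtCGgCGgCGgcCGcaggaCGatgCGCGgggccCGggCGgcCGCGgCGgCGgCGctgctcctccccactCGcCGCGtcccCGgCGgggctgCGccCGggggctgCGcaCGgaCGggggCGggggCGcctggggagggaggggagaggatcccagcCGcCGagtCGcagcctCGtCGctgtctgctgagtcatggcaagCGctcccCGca
IQGAP2, first window: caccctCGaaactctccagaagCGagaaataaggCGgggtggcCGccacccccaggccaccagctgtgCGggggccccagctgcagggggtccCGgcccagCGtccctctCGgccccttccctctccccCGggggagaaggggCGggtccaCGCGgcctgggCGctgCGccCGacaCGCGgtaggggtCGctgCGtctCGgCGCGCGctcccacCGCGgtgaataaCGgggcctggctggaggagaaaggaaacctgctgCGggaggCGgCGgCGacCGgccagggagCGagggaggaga
DST had 45 CpG in this window and IQGAP2 had 32, compared with a median of 14 over 35116 windows. The words TGTGGT and TGCGGT, which RUNX1 is known to bind, were searched on both strands. Neither window held one. The second DST window, at chr6:56851856-56852155 on the minus strand, held 1 match on the reverse strand, shown in capitals.
DST, second window: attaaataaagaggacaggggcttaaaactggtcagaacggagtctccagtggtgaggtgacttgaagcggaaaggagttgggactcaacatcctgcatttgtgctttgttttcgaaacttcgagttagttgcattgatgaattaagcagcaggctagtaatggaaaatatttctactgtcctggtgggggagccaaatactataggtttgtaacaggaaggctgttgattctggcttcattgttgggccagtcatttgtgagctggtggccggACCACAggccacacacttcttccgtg
The second of the 3 MACF1 windows also held 1 match, and the other member windows held none. Over all windows 19.6% held a match. These matches describe letters and say nothing of binding.

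The 9 samples formed 3 groups of 3, all of SKNO-1 and so with the fusion: a control called EV in the labels, and the ASXL2 shRNAs SH2 and SH3. EV is not spelled out in the labels, and the study describes a control shRNA. Each group held samples numbered 1, 13 and 25, without a statement of what the numbers stand for. SKNO-1 is a single cell line, and the labels do not say whether the samples were separate cultures, although the methods speak of biological replicates. If they were not, the p-values measure only technical spread.

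With 1 row per symbol, the totals were 27714431 to 35406063 counts per sample. ASXL2 itself was 67.9 to 74.7 CPM (counts scaled to a library of fixed size after TMM normalization) in EV and 26.9 to 41.1 CPM in the 6 knockdown samples, with no overlap. MPO and KIT, genes of myeloid blasts, were at 6366 to 10240 CPM and 237 to 419 CPM, while the stem cell marker CD34 was at 0.31 CPM or less, and the lymphoid markers CD3E and MS4A1 had no count. In this bulk RNA, fewer cells with a transcript and less transcript per cell cannot be told apart. SH3 sample 1 stood apart from the other SH3 samples: a chi-square statistic per degree of freedom was 97.6 and 105 against them, compared with 14.6 to 43.8 for the other pairs within groups. Results that rest on this library are therefore also given without it.

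The 8 genes are protein-coding and differ widely in transcript length (GRCh37, GENCODE). DST spans chr6:56322785-56819628 on the minus strand and has a reference transcript of 24709 nucleotides, and MACF1 spans chr1:39546988-39952849 with 24340. PLEC (chr8:144989321-145050902, minus strand) has 14804 nucleotides, SPTBN1 (chr2:54683454-54898583) 10211, SPTAN1 (chr9:131314837-131395941) 7875 and IQGAP1 (chr15:90931474-91045471) 7205. IQGAP3 (chr1:156495197-156542396, minus strand) and IQGAP2 (chr5:75699110-76003957) were the shortest, with 6013 and 5808 nucleotides. Among 13783 tested genes with a known length, only 7 had longer reference transcripts than DST. Reads were unstranded, so reads of antisense genes that overlap an exon could not be told apart, and such overlaps were 627 nucleotides with SPTBN1-AS2 and 202 with SPTBN1-AS1 for SPTBN1, 282 with ENSG00000280758 for SPTAN1, 90 with ENSG00000226438 for MACF1 and 87 with F2RL2 for IQGAP2.

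Expressed per kilobase of reference transcript in EV cells, IQGAP1 had the highest level and DST the lowest. IQGAP1 was at 28.4 ± 0.74 CPM per kb (SD, n = 3), followed by SPTAN1 at 21.8 ± 0.81, MACF1 at 15.8 ± 3.1 and IQGAP2 at 15.4 ± 2.4. SPTBN1 was at 9.7 ± 0.66 CPM per kb, PLEC at 7.0 ± 2.0, IQGAP3 at 6.5 ± 1.2 and DST at 2.4 ± 0.62. The samples of MACF1 and IQGAP2 overlapped, as did those of PLEC and IQGAP3, so these neighbours were not separated by their spread, whereas the other neighbours did not overlap in EV. In SH2 and SH3 the same genes stood at both ends, with IQGAP1 at 27.4 ± 2.5 and 27.9 ± 1.5 CPM per kb and DST at 1.3 ± 0.45 and 1.4 ± 0.56. The reference transcript need not be the form these cells use, which limits the order of genes with many forms.

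DST, a plakin that anchors intermediate filaments and also binds actin and microtubules, was lower in every knockdown sample than in the EV sample of the same number. In EV it was at 51.7, 48.6 and 76.7 CPM in the samples numbered 1, 13 and 25. In SH2 it was at 19.8, 34.6 and 41.8 CPM, and in SH3 at 24.8, 30.7 and 51.1 CPM. SH3 sample 25 lay above EV sample 13, so the groups overlapped by 1 sample, and number 25 was highest within each group. Relative to the EV sample of the same number, DST was at 38.2%, 71.3% and 54.5% in SH2 (mean 54.7 ± 16.5%, SD, n = 3) and at 47.9%, 63.1% and 66.6% in SH3 (59.2 ± 9.9%).

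IQGAP2, a scaffold with a GTPase-activating-like domain, varied less between numbers. In EV it was at 92.6, 101.7 and 74.7 CPM in samples 1, 13 and 25. The SH2 samples had 66.1, 76.4 and 51.8 CPM and the SH3 samples 70.4, 67.0 and 57.5 CPM. SH2 sample 13 lay just above EV sample 25, and the other 5 knockdown samples lay below all EV samples. The level was 72.0 ± 2.9% of the same-numbered EV sample with SH2 and 73.0 ± 6.1% with SH3.

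**Figure D1:**
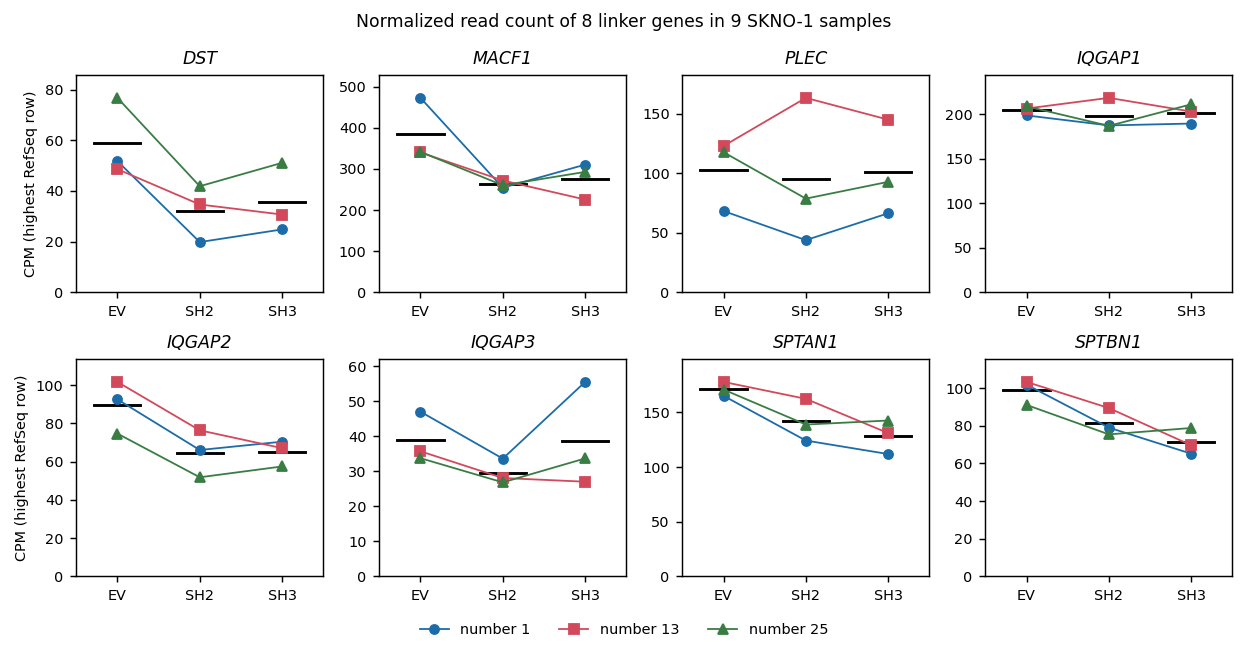
Normalized read count in CPM (y axis, from 0) of the 8 genes in EV, SH2 and SH3; symbols and coloured lines mark samples of the same number, and black bars are group means (n = 3). All 6 knockdown samples of MACF1, SPTAN1 and SPTBN1 lie below all 3 EV samples, while IQGAP1 stays between 187 and 219 CPM in all 9 samples.

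MACF1, the plakin that crosslinks microtubules and actin, was the most abundant of the 8 genes per library. In EV it was at 472.9, 340.0 and 341.5 CPM in samples 1, 13 and 25. With SH2 it was at 254.3, 271.8 and 260.2 CPM and with SH3 at 310.5, 225.5 and 292.7 CPM, so that the groups did not overlap. The level was 70.0 ± 14.2% and 72.6 ± 11.4% of the same-numbered EV sample (SD, n = 3).

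The spectrins were also lower with each shRNA. SPTAN1, the alpha chain of non-erythroid spectrin, was at 165.3, 178.0 and 171.0 CPM in EV samples 1, 13 and 25, at 124.3, 162.5 and 138.9 CPM with SH2 and at 111.9, 131.1 and 142.6 CPM with SH3. SPTBN1, its beta chain partner, was at 101.9, 103.4 and 91.1 CPM in EV, at 79.1, 89.5 and 75.5 CPM with SH2 and at 65.2, 69.7 and 78.9 CPM with SH3. For either chain all 6 knockdown samples lay below all 3 EV samples, and SH3 sample 1 was the lowest of the 9. MACF1, SPTAN1 and SPTBN1 thus did not overlap between EV and knockdown, a pattern found in 371 of 14199 tested genes (2.61%). DST and IQGAP2, with 5 of 6 samples each, did not reach it. Together with these 3 genes they were below the same-numbered EV sample in all 6 pairs, as were 11.6% of tested genes.

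IQGAP1, the widely expressed member of its family, hardly moved, at 198.8, 206.6 and 209.0 CPM in EV, 187.6, 218.6 and 187.0 CPM in SH2, and 189.7, 203.1 and 211.3 CPM in SH3. IQGAP3, a member tied to proliferating cells, was at 47.1, 35.7 and 33.8 CPM in EV and 33.6, 28.1 and 26.9 CPM in SH2. In SH3 it was at 55.6, 27.0 and 33.7 CPM, so that sample 1 was the highest of all 9 and the other SH3 samples lay below all EV samples, the one numbered 25 only just. PLEC, a plakin that links intermediate filaments to other structures, was at 68.3, 122.9 and 117.7 CPM in EV. It was at 43.8, 163.4 and 78.7 CPM in SH2 and 66.4, 145.1 and 92.8 CPM in SH3, so sample 13 rose above and the others lay below their EV partner.

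Differences were tested across all 14199 genes with edgeR's quasi-likelihood test and Benjamini-Hochberg adjustment. Without the sample number in the model, none of the 6 genes that could be tested passed an adjusted p of 0.05 for SH2, SH3 or their average, and no gene of the whole table did (0.0%). At an unadjusted p under 0.05 the whole-table counts were 762, 723 and 942 genes, and DESeq2 called 25, 26 and 56. In this fit the average of both shRNAs against EV was a log2 fold change of -0.52 for MACF1 (SE 0.13, adjusted p = 0.623), -0.34 for SPTAN1 (SE 0.11, adjusted p = 0.623) and -0.38 for SPTBN1 (SE 0.09, adjusted p = 0.623). The chosen genes DST and IQGAP2 were at -0.81 (SE 0.27) and -0.47 (SE 0.14), given as a description.

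With the sample number as a block, called the paired fit below, 3 of the 6 genes passed for both shRNAs averaged, all downwards, where 120 of 14199 genes fell (0.845%). All 3 belong to the longest of the 10 length classes given below, in which 4.71% of genes fell at this threshold. MACF1 fell by 0.50 on the log2 scale (SE 0.10, adjusted p = 0.0472), SPTAN1 fell by 0.35 (SE 0.07, adjusted p = 0.0473) and SPTBN1 fell by 0.38 (SE 0.08, adjusted p = 0.0488), all in edgeR's test. All 3 values sat close to the threshold. PLEC was at -0.16 (95% interval -0.48 to 0.16), IQGAP1 at -0.04 (-0.18 to 0.10) and IQGAP3 at -0.21 (-0.45 to 0.02), and none of them passed. DST was at -0.84 (SE 0.11) and IQGAP2 at -0.47 (SE 0.06), given as a description. The median over the 6 other genes was -0.28, beside 0.01 over all tested genes.

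Taken 1 shRNA at a time, the paired fit called none of the 6 genes, while 40 genes (0.282%) passed with SH2 and 59 (0.416%) with SH3. These contrasts chose DST and IQGAP2, whose adjusted p was 0.0428 for both genes with SH2 and 0.0453 and 0.0360 with SH3, all just inside the threshold. SPTBN1 and SPTAN1 stood just outside with SH3, at adjusted p values of 0.0504 and 0.0508, and MACF1 followed at 0.0795 with SH2 and 0.097 with SH3. Without SH3 sample 1, the library that stood apart, 4 of the 6 genes passed with SH2 in edgeR, MACF1 (adjusted p = 0.00996), IQGAP3 (0.0123), SPTAN1 (0.0245) and SPTBN1 (0.0303), among 1604 of 14291 genes (11.2%). With SH3 it was 3 of the 6, SPTAN1 (0.0295), SPTBN1 (0.0295) and MACF1 (0.0497), among 368 of 14291 genes (2.58%). The omitted library belongs to neither EV nor SH2, and MACF1 with SH2 hardly moved, from -0.53 to -0.54. The spread shared by all samples (biological coefficient of variation) went from 0.0875 to 0.0606. With all samples, DST was at -0.91 with SH2 and -0.78 with SH3, and IQGAP2 at -0.47 and -0.46.

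The 3 calls of the paired fit depended on single libraries. Without any 1 of EV samples 1, 13 and 25, SH2 samples 1, 13 and 25 or SH3 sample 13, MACF1, SPTAN1 and SPTBN1 all missed the threshold, with adjusted p values of 0.0583 to 0.352. Without SH3 sample 25 only SPTBN1 passed (adjusted p = 0.0425). Without SH3 sample 1, MACF1 fell by 0.52 (adjusted p = 0.00741), SPTAN1 fell by 0.33 (adjusted p = 0.00925), SPTBN1 fell by 0.35 (adjusted p = 0.0103) and IQGAP3 also passed, at -0.31 (adjusted p = 0.0198). In that edgeR fit 1027 of 14291 genes fell (7.19%), so that the share of genes called rose in the whole table. Calls in the whole table went from 156 genes to between 2 and 4 without any 1 EV sample, SH2 sample 1 or SH2 sample 25. DST was, without SH3 sample 1, at -0.82 and IQGAP2 at -0.49. Across all 9 omissions the log2 fold change was between -0.97 and -0.65 for DST and between -0.50 and -0.42 for IQGAP2. Both genes were chosen by their fall in these same samples. Their ranges are therefore a description and cannot be set against the results of the tested genes.

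**Figure D2:**
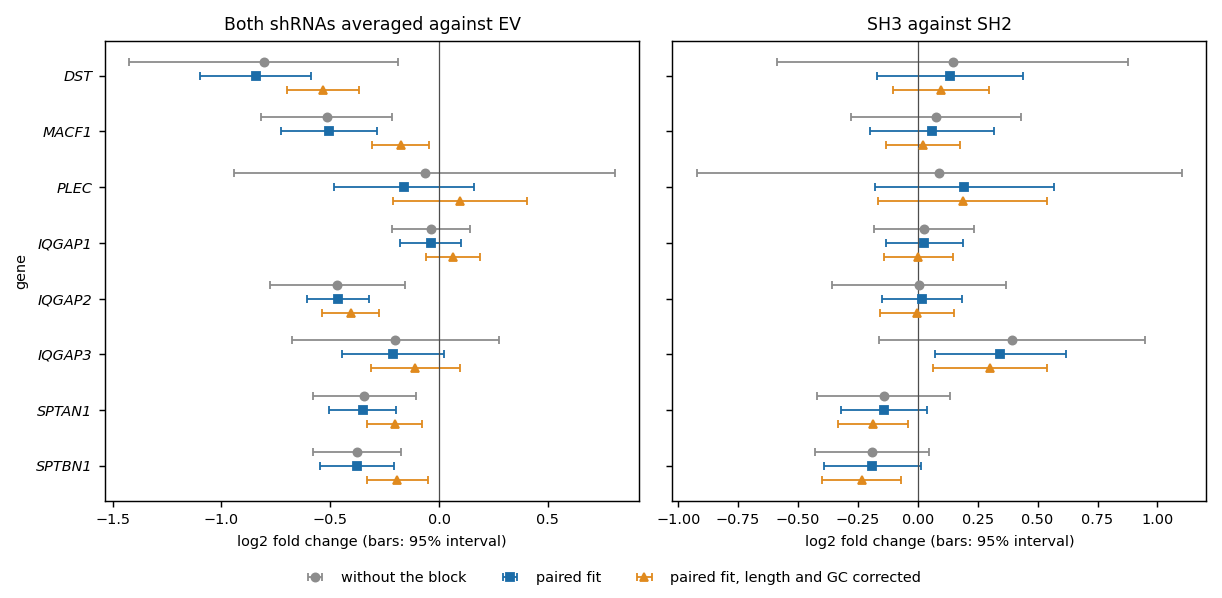
Log2 fold changes (x axis) of the 8 genes for both shRNAs averaged against EV (left) and SH3 against SH2 (right); points are fits without the block, with it, and with an added correction for length and GC content, and bars are 95% intervals. On the left the corrected value of MACF1 lies at -0.18 against -0.50 in the paired fit, while IQGAP2 moves from -0.47 to -0.41; on the right no gene passes an adjusted p of 0.05.

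Long transcripts as a class were lower with the shRNAs, and most of the 8 genes are long. When the tested genes were put in 10 classes by length, the class median of the paired log2 fold change, averaged over SH2 and SH3, went from 0.09 in the shortest class (up to 1002 nucleotides) to -0.15 in the longest (7182 to 109224 nucleotides, 1379 genes). Across genes, which are not independent replicates, length and change had a Spearman correlation of -0.356. DST, MACF1, PLEC, IQGAP1, SPTAN1 and SPTBN1 belong to the longest class, and IQGAP2 and IQGAP3 to the one below it, with a median of -0.07.

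The place of each gene within its length class differed widely, although the longest class is broad, with a median of 9069 nucleotides, far under DST and MACF1. DST and IQGAP2 were chosen on these same values, so their places, with 0.87% and 2.54% of their class lower, follow from the choice and are a description. For the other genes the share of the class with a lower value was 5.22% for MACF1, 11.9% for SPTBN1, 14.5% for SPTAN1, 17.8% for IQGAP3, 47.5% for PLEC and 72.7% for IQGAP1. The 7 tested genes with longer reference transcripts than DST ranged from -0.62 to 0.67, with a median of -0.15. A reference transcript need not be the form that was counted, so these genes may not match DST in counted length. None of the 7 was lower than DST, which was chosen for its fall. Of them 3 were lower than MACF1, among them the giant muscle protein TTN (-0.62).

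A correction for length and GC content, fitted in each sample over all genes within the paired design, took most of the change from MACF1 and little from IQGAP2. The corrected log2 fold change was -0.53 (SE 0.07) for DST and -0.41 (SE 0.06) for IQGAP2. For MACF1 it was -0.18 (SE 0.06, adjusted p = 0.22), for SPTAN1 -0.20 (SE 0.06, adjusted p = 0.16) and for SPTBN1 -0.19 (SE 0.06, adjusted p = 0.214). None of the 6 genes passed after the correction, and 25 of 13783 genes did (0.181%). The paired fit over these 13783 genes without the correction already left them just outside the threshold, with adjusted p values of 0.0567 for MACF1, 0.0551 for SPTAN1 and 0.0567 for SPTBN1 in edgeR. PLEC and IQGAP1 changed sign, to 0.10 (95% interval -0.21 to 0.40) and 0.07 (-0.06 to 0.19). At the length of DST and MACF1 the correction rests on few genes, and whether the fall with length came from the cells or from the libraries was not tested.

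**Figure D3:**
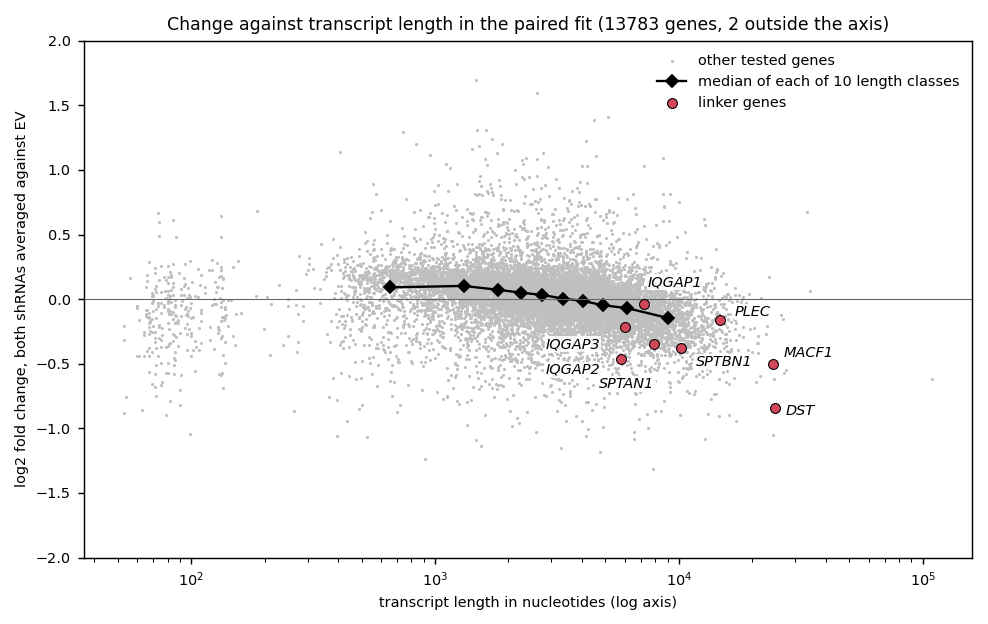
Log2 fold change for both shRNAs averaged against EV in the paired fit (y axis) against transcript length (x axis, log scale) for 13783 genes, of which 2 lie outside the axis; red points are the 8 genes and black diamonds the medians of 10 length classes. The class medians go from 0.09 to -0.15, DST (-0.84) and IQGAP2 (-0.47) were chosen by these contrasts, and PLEC (-0.16) lies close to the median of its class.

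The shRNAs were then set against each other, a contrast that was not used to choose the genes. None of the 8 genes passed in either fit, where no gene of the table passed without the block (0.0%, 293 genes at an unadjusted p under 0.05, 11 in DESeq2) and 15 genes did with it (0.106%). In the paired fit, SH3 minus SH2 was 0.13 for DST (95% interval -0.17 to 0.44) and 0.02 for IQGAP2 (-0.15 to 0.18), so differences of up to those bounds remain possible. IQGAP3 had the largest difference, 0.34 (0.07 to 0.62, adjusted p = 0.332 in edgeR). The IQGAP3 difference was sensitive to SH3 samples 1 and 13. Without sample 1 it shrank to 0.16 (adjusted p = 0.704 in edgeR). Without sample 13 it grew to 0.52 and passed (adjusted p = 0.0357 in edgeR), where 257 of 14345 genes did. SPTBN1 and SPTAN1 were at -0.19 (-0.39 to 0.01) and -0.14 (-0.32 to 0.04), and MACF1, PLEC and IQGAP1 between 0.03 and 0.19.

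In the fit with group and number, the sample number was related to the level of many genes in the whole table. For samples numbered 1 against 13 and 25, 4 of the 8 genes passed, where 46.3% of all tested genes did. This count therefore does not set the 8 genes apart. PLEC was lower, with a log2 fold change of -1.0 (SE 0.15, adjusted p = 0.000951 in edgeR) and so was DST, at -0.60 (SE 0.12, adjusted p = 0.00329), whereas IQGAP3 was higher by 0.54 (SE 0.10, adjusted p = 0.00267). SPTAN1 was lower, at -0.21 (SE 0.07, adjusted p = 0.0311), and MACF1, IQGAP1, IQGAP2 and SPTBN1 did not pass. The calls for PLEC, DST and IQGAP3 held without any single library. SPTAN1 missed the threshold without SH2 sample 1 (adjusted p = 0.118), SH2 sample 13 (0.0594), SH3 sample 1 (0.0857) or SH3 sample 25 (0.0669), and MACF1 passed without SH2 sample 1 (adjusted p = 0.0168) or SH2 sample 13 (0.040).

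Between numbers 25 and 13, DST and IQGAP2 moved in opposite directions. DST was higher in number 25 by 0.55 (SE 0.14, adjusted p = 0.0422 in edgeR) and IQGAP2 was lower, at -0.41 (SE 0.08, adjusted p = 0.0135), 2 of 8 genes where 5.87% of tested genes passed. PLEC was at -0.60 (SE 0.17, adjusted p = 0.0607) and the other 5 genes between -0.08 and 0.10. These calls were less stable than those for number 1. DST missed the threshold without EV samples 13 or 25, SH2 sample 25 or SH3 samples 13 or 25 (adjusted p 0.089 to 0.21), and IQGAP2 missed it without EV samples 13 or 25, SH2 samples 13 or 25 or SH3 sample 25 (0.0591 to 0.124). PLEC passed without EV sample 13 (adjusted p = 0.0167) or SH3 sample 1 (0.00993). What differed between the numbers cannot be told from the labels.

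**Figure D4:**
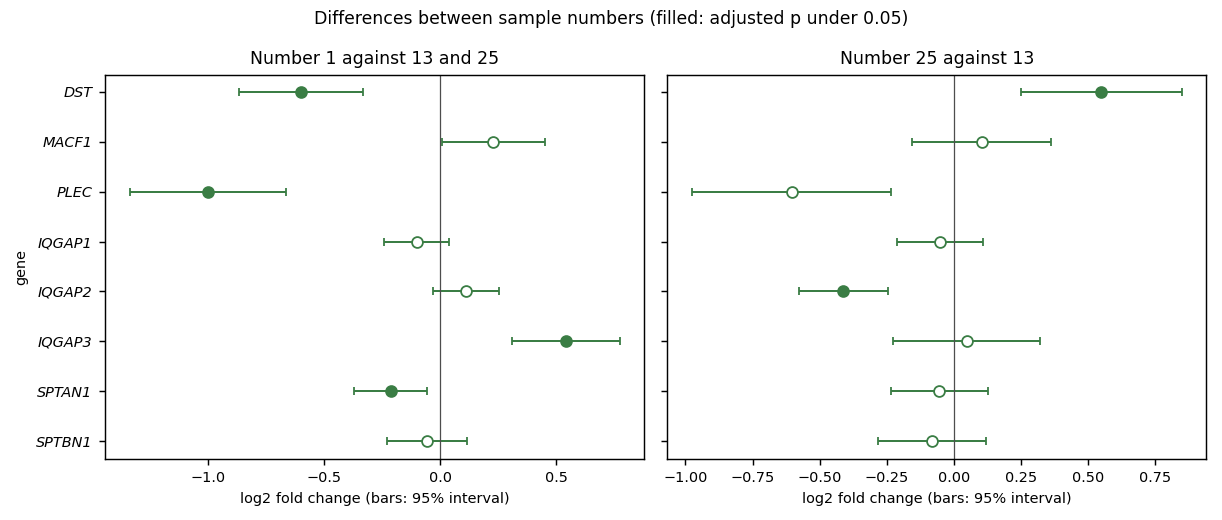
Log2 fold changes (x axis) between sample numbers for the 8 genes, from the fit with group and number; points are estimates, filled where the adjusted p is under 0.05, and bars are 95% intervals. PLEC (-1.0) and DST (-0.60) are lower and IQGAP3 (0.54) higher in number 1, and DST (0.55) and IQGAP2 (-0.41) differ with opposite signs between numbers 25 and 13. Of all tested genes, 46.3% passed in the left contrast and 5.87% in the right one.

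The files list several RefSeq rows for 5 of the genes, and rows that share exons share reads. The 8 rows of PLEC and the 3 rows of SPTAN1 held nearly the same counts, the lowest row having 99.8% or more of the highest, so they carry no separate information. DST had 5 rows. The rows NM_001144769 (the highest), NM_183380, NM_001144770 and NM_015548 gave 59.0, 58.7, 58.6 and 57.1 CPM on average in EV, and the fifth, NM_001723, 5.9 CPM. The lengths of the rows were not compared, so the CPM of a row does not measure how common its transcript was. NM_001723 had 150, 121 and 281 counts in EV samples 1, 13 and 25, then 32, 81 and 83 counts in SH2 and 38, 56 and 155 counts in SH3. This was 8.0%, 8.5% and 12.2% of the highest row in EV, 5.4%, 7.3% and 6.9% in SH2, and 5.2%, 5.6% and 11.1% in SH3, lower than the same-numbered EV sample in 6 of 6 pairs. The log2 fold change of the DST rows ran from -1.28 for NM_001723 to -0.83.

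IQGAP2, with 4 rows, and SPTBN1, with 2, also had rows that held only part of the reads. For IQGAP2, NM_001285461 and NM_001285462 had the same counts in every sample. NM_001285460 had 96.6% to 97.7% of the highest row and a log2 fold change of -0.46. NM_001285461 of IQGAP2 had 76.6%, 78.2% and 76.1% of the counts of NM_006633 in EV, 81.2%, 80.0% and 82.3% in SH2, and 83.2%, 82.7% and 76.9% in SH3, higher than the same-numbered EV sample in 6 of 6 pairs. Its log2 fold change was -0.39, compared with -0.47 for the highest row, so the reads outside it were the more strongly lowered ones. NM_178313 of SPTBN1 had 78.6%, 77.6% and 84.6% of the counts of NM_003128 in EV, 68.4%, 75.3% and 73.8% in SH2 and 66.5%, 68.2% and 80.2% in SH3, lower in 6 of 6 pairs. Its log2 fold change was -0.53 (SE 0.10), compared with -0.38 (SE 0.08) for the highest row. The highest SPTBN1 row minus this row left 19.7 ± 4.9 CPM in EV, 22.3 ± 2.6 in SH2 and 19.9 ± 3.7 in SH3 (SD, n = 3). The mean of this remainder was thus not lower with either shRNA. Shares of 1 gene are given as a description, and which exons separate the rows was not analysed here.

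**Figure D5:**
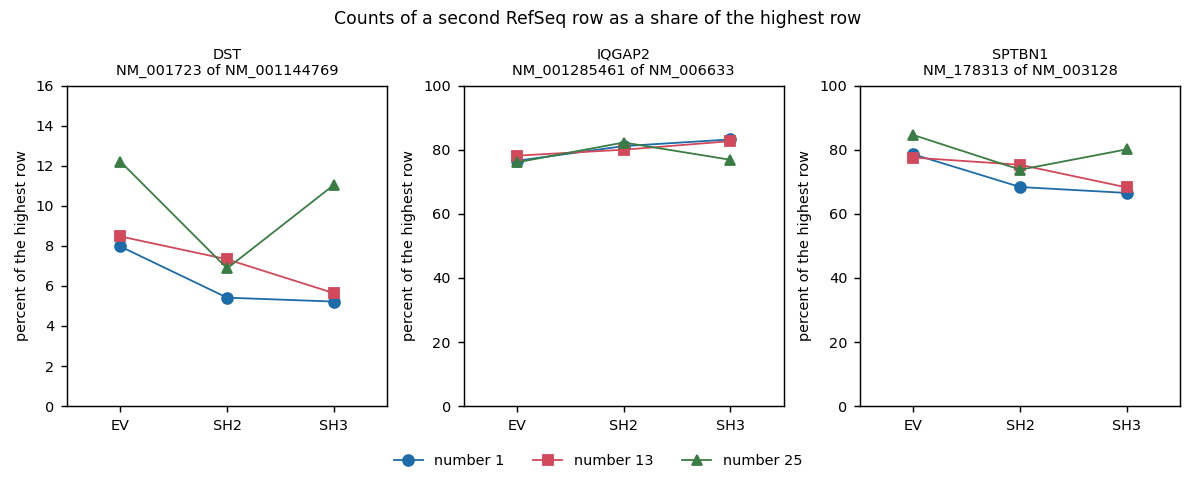
Counts of a second RefSeq row as a percentage of the highest row (y axis) in EV, SH2 and SH3 for DST, IQGAP2 and SPTBN1, with lines joining samples of the same number; the DST axis ends at 16%. The share is lower than in EV for DST and SPTBN1 and higher for IQGAP2 in all 6 pairs, with SH3 sample 25 close to its EV partner for IQGAP2.

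The genes whose log2 CPM followed DST and IQGAP2 most closely over the 9 samples were not other linkers. For DST these were EXOC7 (Pearson r = 0.983), KIF3A (0.979), ZSWIM8 (0.979), AGO2 (0.967) and TRRAP (0.966), which include a subunit of the exocyst, a kinesin motor and an Argonaute protein. For IQGAP2 they were H6PD (0.985), PIK3C2B (0.983), ZNF837 (0.980), MAML1 (0.978) and PACS1 (0.973). Within the 8 genes, SPTAN1 was closest to DST (0.786) and SPTBN1 to IQGAP2 (0.732), while DST and IQGAP2 had a correlation of 0.234. The points share groups and sample numbers, so these values describe likeness in these libraries only.

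Lists of 72 other cytoskeletal genes, of which 48 were tested, held 1 gene that fell and none that rose with the shRNAs averaged in the paired fit (2.08% fell, beside 0.845% of all tested genes). The gene was EVPL, the plakin envoplakin, at 8.8 ± 1.1 CPM in EV, 6.0 ± 0.42 in SH2 and 5.8 ± 0.51 in SH3 (SD, n = 3), which fell by 0.58 (SE 0.11, adjusted p = 0.0472 in edgeR) and did not pass after the length correction (-0.45, adjusted p = 0.104). It was the only tested gene of the 4 other plakins listed. The median log2 fold change over the 48 genes was -0.08, beside 0.01 over all tested genes.

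Of the other spectrins 4 of 5 were tested and none passed, with SPTB, a spectrin chain of red blood cells, at -0.24 (SE 0.10). The 8 tested genes of the spectrin-bound membrane skeleton had a median of -0.03, with EPB41 (protein 4.1) at -0.24 and ADD1 (an adducin) at -0.11, and none passed. The 7 tested spectrin-repeat and actin-crosslinking proteins had a median of -0.18 with none passing, and UTRN (utrophin) was at -0.37 and SYNE3 (a nuclear envelope nesprin) at -0.77. Among 11 tested partners of IQGAP proteins the median was 0.08, with APC at -0.27 and CLIP1 at -0.35. The 8 microtubule plus-end proteins were all below 0, as were 47.9% of all tested genes, with a median of -0.14. CLASP1 and CLIP2 were both at -0.23, while MAPRE1, at -0.06 (SE 0.07), lay within its error of 0. Among 5 tested intermediate filament and lamin genes the median was 0.04, with VIM (vimentin) at 0.27 and LMNB2 at -0.10, and among 4 adhesion anchors it was -0.14, with VCL (vinculin) at -0.28 and TLN1 (talin) at -0.23. In none of these lists did a gene pass with all samples in edgeR. Without SH3 sample 1 the number of listed genes called went from 1 to 9, EVPL, ADD3, EPB41, UTRN, SYNE3, APC, CLIP1, CLASP1 and VCL. The share called among all tested genes also went up, from 1.1% to 12.3% (1755 of 14291), and 1027 of these fell (7.19% of all). After the length and GC correction the list medians moved, to -0.03 for the other spectrins, 0.05 for the membrane skeleton, -0.01 for the spectrin-repeat proteins, 0.05 for the IQGAP partners, -0.07 for the plus-end proteins, 0.07 for intermediate filaments and lamins and 0.09 for the adhesion anchors, so that the membrane skeleton and the anchors changed sign, as did the plus-end gene CLASP2 (0.02).

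Markers of other cell types were low throughout. The 4 epithelial hemidesmosome markers summed to 6.7 to 14.2 CPM in EV, 5.9 to 11.6 in SH2 and 5.7 to 16.7 in SH3, nearly all from ITGB4, the integrin that binds plectin and dystonin in skin, while COL17A1 and EPCAM had at most 3 counts. The 5 erythroid markers summed to 5.7 to 8.6 CPM in EV, 7.5 to 8.4 in SH2 and 4.2 to 7.0 in SH3, from KLF1, with HBB at 0. The 4 lymphoid markers stayed at 0.14 CPM or less in sum, and the 3 fibroblast markers at 2.0 CPM or less. The 6 myeloid blast markers summed to 7764 to 10134 CPM in EV, 6926 to 11033 in SH2 and 8000 to 10382 in SH3, mostly from MPO. None of the 5 tested ones passed (CD33 0.17, RUNX1T1 -0.13).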

How the data were processed

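RNA was measured by poly(A)-selected, unstranded sequencing in 9 SKNO-1 samples. The deposited values are raw counts per RefSeq row on hg19, not normalized. The labels name STAR, featureCounts and DESeq2 without a version or role, and the methods name Cuffdiff. The extraction text in the labels describes sorted marrow cells, whereas all samples are labelled as SKNO-1, as used here.

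A read shared by transcripts was counted in each row, so each of 25680 symbols was represented by its row with the highest total (9509 symbols had more than 1 row). A shift between isoforms can therefore move a value. Totals were 62079356 to 79254366 counts over all rows and 27714431 to 35406063 with 1 row per symbol. A count of 0 allows up to 3 counts, or 0.0847 to 0.108 CPM, and such floors cover counting error only.

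Counts were fitted with edgeR 4.0.16 (R 4.3.3): filterByExpr (minimum count 10, minimum total 15) left 14199 genes, libraries were scaled by TMM, and the quasi-likelihood test was adjusted by Benjamini-Hochberg over all genes, with a threshold of 0.05. The design used groups only. The paired fit added the sample number as a block. Over 9 same-numbered pairs the deviations of log2 CPM from group means correlated at 0.398 to 0.731, and at most at 0.306 between different numbers, so the numbers were taken to pair the samples, from the data and not from the labels. The biological coefficient of variation was 0.192 without and 0.0875 with the block. Length and GC content were corrected with a spline of 5 degrees of freedom within the paired fit. Number contrasts used group and number. DESeq2 1.42.0, other scaling, no filter, sums of rows and leaving out each sample were alternatives. The fits were tested on simulated data.

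The named genes were the 8 members, ASXL2, from each gene list the 2 with the smallest unadjusted p, and for DST and IQGAP2 the 5 with the highest correlation. A few of the genes so named are not reported here. The members and lists were chosen with earlier results of these data known.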

Additional observations from a re-analysis of the deposited data

How the results depend on the processing

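The results turned on whether the sample number entered the fit. Without it edgeR called 0 genes with SH2, SH3 or both averaged, and with the replicate block it called 40, 59 and 156. DESeq2 called 25, 26 and 56 genes, and 374, 474 and 622 with the block. The block brought MACF1, SPTAN1 and SPTBN1 past the threshold for both shRNAs (3 genes) and EVPL among the other listed genes (1 gene), and it changed no other call among the 6 tested members or between the shRNAs. DESeq2 called 1 member with SH3 and 1 for both shRNAs, each time SPTBN1, and 1 listed gene, EVPL. DESeq2 with the block called 1 member with SH2 (MACF1), 3 with SH3, 3 for both shRNAs and 7 listed genes (EVPL, EPB41, UTRN, SYNE3, APC, CLIP1 and VCL). ASXL2 was at -1.08 (adjusted p = 0.177 in edgeR) and passed at -1.09 with the block, -1.08 with the block over genes of known length, -0.89 with the length correction, -1.07 in DESeq2 and -1.09 in DESeq2 with the block. The 3 members missed the threshold when the paired fit took only genes of known length (adjusted p 0.0551 to 0.0567). Of 1278 values under 28 alternatives, 1126 kept their direction and their side of the threshold.

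The length and GC correction with the block turned PLEC to 0.0021 with SH2, 0.19 with SH3 and 0.096 for both, IQGAP1 to 0.064, 0.067 and 0.066, IQGAP3 to 0.043 with SH3, and IQGAP2 to -0.0037 for SH3 minus SH2, where no filter gave -0.0011. Numbers without the group term gave 2 members for number 1 (PLEC and IQGAP3) and 0 for 25 against 13, where summing the counts of a symbol gave 1 (IQGAP2). The share of all genes called in these fits is not given here, so these member counts cannot be set against it.

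Leaving out 1 sample, with or without the block, gave 0 to 4 members with SH2, 0 to 3 with SH3, 0 to 4 for both, 0 to 1 between shRNAs, 0 to 3 for 25 against 13, and 0 to 9 listed genes. Over the whole table the paired calls for SH2, SH3 and both were 1604, 368 and 1755 genes without SH3 sample 1. Without any 1 EV sample, SH2 sample 1 or SH2 sample 25 they were 0 to 5, 1 to 7 and 2 to 4. They were 7, 8 and 25 without SH2 sample 13, 265, 93 and 90 without SH3 sample 13, and 2, 1 and 88 without SH3 sample 25. Between the shRNAs the paired calls ranged from 0 without SH2 sample 25 or SH3 sample 25 to 257 without SH3 sample 13. For 25 against 13 the calls ranged from 50 genes without EV sample 25 to 2750 without SH3 sample 1. ASXL2 ranged from -1.18 to -1.0. The values that follow changed sign. With SH2, PLEC ranged from -0.74 to 0.23 and IQGAP1 from -0.13 to 0.00044. With SH3, PLEC ranged from -0.37 to 0.21, IQGAP1 from -0.064 to 0.013 and IQGAP3 from -0.36 to 0.20, and for both shRNAs PLEC from -0.40 to 0.11. SH3 minus SH2 ranged from -0.21 to 0.40 for DST, -0.080 to 0.20 for MACF1, -0.26 to 0.73 for PLEC, -0.021 to 0.11 for IQGAP1 and -0.12 to 0.15 for IQGAP2. For number 1, SPTBN1 ranged from -0.12 to 0.0057. For 25 against 13, the ranges were -0.0020 to 0.26 for MACF1, -0.084 to 0.029 for IQGAP1, -0.12 to 0.17 for IQGAP3, -0.13 to 0.039 for SPTAN1 and -0.20 to 0.0054 for SPTBN1. The causes were not tested. With 3 samples a group, small differences cannot be told from none, and 1 row per symbol cannot separate isoforms. Depth limits the DST row NM_001723 most, with 32 to 281 counts.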

Other observations

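KIAA0754, a symbol that RefSeq gives as a synonym of MACF1, had a row of its own (NM_015038) in the files and was picked after its values were seen. It was at 14.7, 13.9 and 20.9 CPM in EV samples 1, 13 and 25, at 5.15, 11.3 and 9.53 CPM with SH2 and at 2.93, 7.32 and 15.4 CPM with SH3. Each knockdown sample lay below the EV sample of its number, and SH3 sample 25 lay above EV samples 1 and 13. Its log2 fold change in the paired fit was -1.06 (SE 0.25) for both shRNAs averaged, and -0.92 (SE 0.27) for samples numbered 1 against 13 and 25, both given as a description without a test.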
